A study of Homo sapiens with 3 samples.

Results

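The actin cytoskeleton, ERM and MARCKS genes described here were a list of 41 genes for filament-building proteins, adhesion plaque proteins and the linkers between actin and the plasma membrane. A gene was measured by its probe sets annotated with a single gene symbol, and was represented by the one with the highest mean over the 3 arrays. In this way 38 of the 41 genes were found among 18132 genes of the series. FLNA, TPM3 and ACTR2 had no single-symbol probe set in the annotation used here, so no expression value is given for them. Of the 38 genes, 37 passed a filter on dim values (log2 5.27, below which 40% of the probe sets other than controls lay), as did 12232 genes of the whole series. CNN3 was the member below the filter. The values came from 149 probe sets of the 38 genes, 128 of them above the filter.

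The study measured KYSE150 cells, an established line from a human oesophageal squamous carcinoma, 48 h after transient transfection. One group had received pcDNA3.1 LOXL2 WT, the wild-type form of lysyl oxidase like 2, and another pcDNA3.1 LOXL2 delta72, whose structure is not described in the labels. The reference cells had received a vector without LOXL2 and are called the control. Each of the 3 conditions had 1 Affymetrix 3' expression array, so no difference has a replicate check and no test was possible. Words such as higher or lower describe single arrays. Each array averaged over transfected and untransfected cells, and fewer cells with a transcript cannot be told apart from less transcript per cell.

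Actin filaments grow from monomers that profilin delivers, branch through the Arp2/3 complex, are elongated by formins and Ena/VASP proteins, and are severed by cofilin. Crosslinkers, tropomyosins and non-muscle myosin turn them into bundles and contractile fibres, which are anchored at adhesion plaques. Ezrin, radixin and moesin (the ERM proteins) tie the cortical filaments to membrane proteins, and MARCKS proteins bind actin and acidic membrane lipids until protein kinase C releases them.

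The transfected gene was read first. The brightest LOXL2 probe set was at log2 14.05 with LOXL2 WT and 14.06 with LOXL2 delta72, against 7.46 on the control array. Of its 4 probe sets, 3 were higher with both forms and 1 was lower, at 8.32 and 8.66, against 8.81. Of the squamous epithelial markers, 5 of 8 had a single-symbol probe set and all 5 passed the filter. KRT5, a basal keratin, was at 11.52 with LOXL2 WT and 11.27 with LOXL2 delta72, against 11.62 in the control, while the E-cadherin gene CDH1 read 11.95 and 11.91, against 11.91. KRT14, the partner keratin of KRT5, was 1.60-fold and 1.58-fold lower than the control, at 7.08 and 7.10, against 7.76, on a single probe set. DSG3, a desmosomal cadherin gene, was higher, at 9.33 and 9.21, against 8.999, and PKP1, the plakophilin-1 gene, was at 7.21 and 7.25, against 7.37. For other cell types, 1 of 6 fibroblast markers, 1 of 4 measured leukocyte markers, 2 of 3 endothelial markers and 4 of 5 smooth muscle markers passed the filter. The medians of the non-control probe sets were 5.93 with LOXL2 WT and 5.94 with LOXL2 delta72, against 5.95 in the control.

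On their brightest probe sets, the actin genes stayed within 1.5-fold of the control with either form of LOXL2. With LOXL2 WT the 37 members above the filter ranged from -0.37 (ARPC1B) to 0.26 (TPM1) on the log2 scale, with a median difference of -0.12, against -0.01 (-0.00942) for all genes. With LOXL2 delta72 they ranged from -0.35 (MARCKS) to 0.27 (TPM1), with a median of -0.06, against 0.0 for all genes. Members below the control numbered 25 of 37 (67.6%) with LOXL2 WT, where 51.7% of all genes were below it. They also numbered 25 of 37 with LOXL2 delta72, where 49.8% of all genes were below. Both comparisons use the same control array.

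At 1.5-fold, 0 of 37 members differed in either comparison, against 2.71% of all genes with LOXL2 WT and 1.78% with LOXL2 delta72. A smaller size, 1.2-fold (0.26 on the log2 scale), was therefore counted too. With LOXL2 WT, 5 members were at least 1.2-fold lower (13.5%, against 11.4% of all genes) and 0 were higher (against 13.7%). With LOXL2 delta72, 6 members were at least 1.2-fold lower (16.2%, against 7.75% of all genes) and 1 was higher (2.7%, against 11.0%). After quantile normalization or a shift of the arrays to a common median, the delta72 counts were 7 lower and 0 higher. The lower count with LOXL2 WT depended more on the processing. It was 10 (27%, against 15.2% of all genes) after the shift to a common median and 8 (21.6%, against 10% of all genes) with the median over each gene's probe sets. As deposited, the 5 were MARCKS, ARPC1B, PXN, FSCN1 and ACTA2, and the 6 with LOXL2 delta72 were MARCKS, PFN1, ARPC5, FSCN1, MYL9 and ACTA2.

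**Figure D1:**
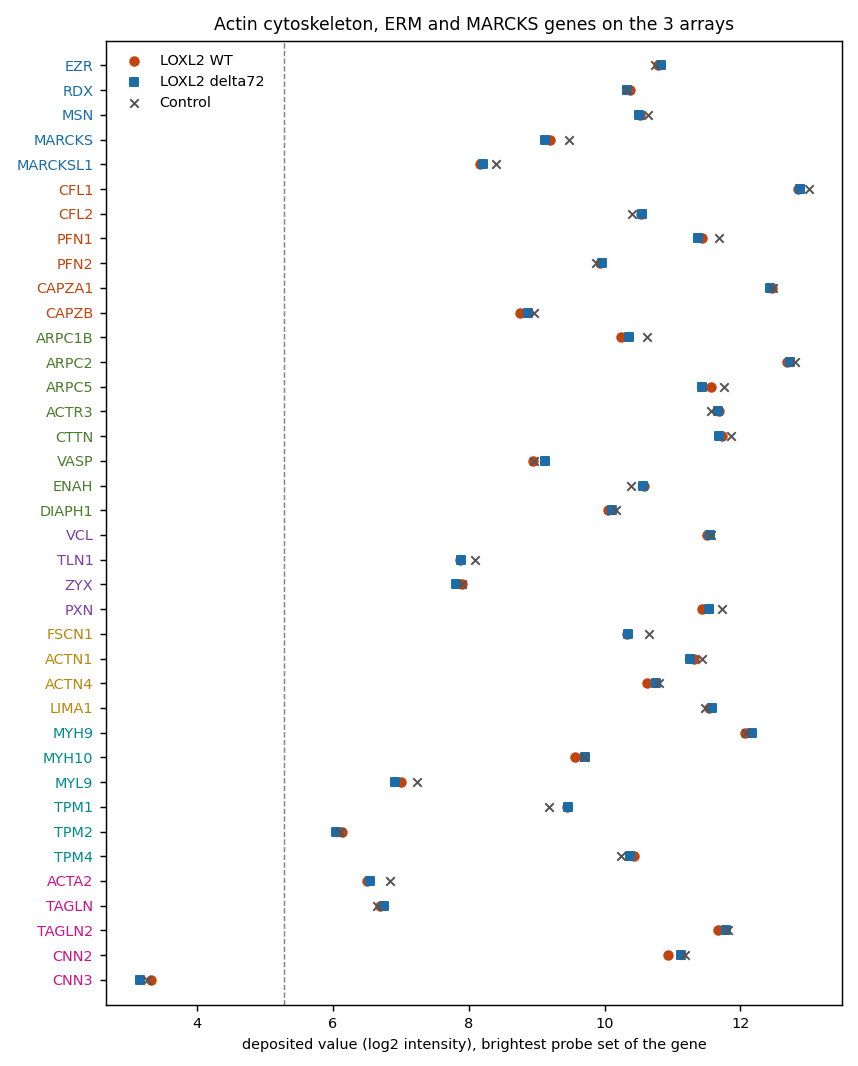
Deposited log2 intensity of the brightest probe set of each of the 38 measured members (horizontal axis) on the LOXL2 WT array (circles), the LOXL2 delta72 array (squares) and the control array (crosses), with gene names coloured by role. The dashed line is the filter at log2 5.27, and CNN3 is the gene below it. The marks of a gene lie close together, and no gene differs by 1.5-fold.

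Among the membrane linkers, on the brightest probe sets, the ERM genes differed little from the control and both MARCKS genes were lower. EZR, which encodes ezrin, was at 10.79 with LOXL2 WT and 10.83 with LOXL2 delta72, against 10.75 in the control. RDX, the radixin gene, was at 10.37 and 10.33, against 10.34, and MSN, the moesin gene, at 10.52 and 10.51, against 10.64. The 3 ERM genes thus lay within 1.09-fold of the control on their brightest probe sets. The other EZR and RDX probe sets lay on either side of 0. All 3 MSN probe sets were lower with each form, at -0.12 to -0.32 with LOXL2 WT and at -0.00896 to -0.29 with LOXL2 delta72. As the median over probe sets with LOXL2 WT, MSN (-0.28) was as low as MARCKS (-0.25) and MARCKSL1 (-0.24). With LOXL2 delta72 these medians were -0.13, -0.45 and -0.20.

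MARCKS was at 9.20 with LOXL2 WT and 9.12 with LOXL2 delta72, against 9.47 in the control. These values are 1.21-fold and 1.27-fold lower than the control (SD of the difference between its 2 probe sets 0.03 and 0.15). The dimmer MARCKS probe set differed by -0.23 with LOXL2 WT and -0.56 with LOXL2 delta72. MARCKSL1, its smaller relative, was at 8.17 and 8.21, against 8.41, on its single probe set. The control array was the highest of the 3 for both MARCKS genes.

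In the monomer and capping group, the ubiquitous isoforms of cofilin and profilin were below the control and their relatives CFL2 and PFN2 slightly above it. PFN1, which encodes the main profilin, was at 11.44 with LOXL2 WT and 11.38 with LOXL2 delta72, against 11.69 in the control, or 1.19-fold and 1.24-fold lower. Its 2 probe sets disagreed in size (SD 0.17 and 0.09). The dimmer one differed by only -0.0088 with LOXL2 WT and by -0.18 with LOXL2 delta72. CFL1, the non-muscle cofilin gene, was at 12.85 and 12.88, against 13.01. All 6 CFL1 probe sets were below the control with each form, and the brightest one differed less than the median over the 6 with LOXL2 delta72, -0.13 against -0.31. CFL2, the muscle-type cofilin gene, was at 10.54 and 10.55, against 10.41, and PFN2 at 9.93 and 9.96, against 9.87. All 3 probe sets of each were above the control in both comparisons. The capping protein genes CAPZA1 and CAPZB, whose products block the fast-growing filament end, differed by -0.0146 and -0.20 with LOXL2 WT, and by -0.06 and -0.08 with LOXL2 delta72.

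Genes of filament branching and elongation did not share a direction. Of the Arp2/3 subunit genes among the members, ARPC1B, ARPC2 and ARPC5 were below the control and ACTR3 above it. ARPC1B was at 10.25 with LOXL2 WT and 10.36 with LOXL2 delta72, against 10.62 in the control, on a single probe set. The differences were -0.37 and -0.26, the second just under 1.2-fold, and the WT value was the lowest of all members in that comparison. ARPC5 was at 11.57 and 11.43, against 11.76, with all 3 probe sets lower in both comparisons, although the median over them was -0.16 with LOXL2 delta72 and -0.33 on the brightest. ARPC2 differed by -0.12 and -0.07. ACTR3, which encodes one of the actin-related subunits that start the branch, was higher, at 11.68 on both LOXL2 arrays, against 11.57. Outside the list and named after its values were seen, ARPC5L, a relative of ARPC5, was also higher, by 0.22 and 0.25.

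CTTN, the cortactin gene, whose product stabilises branches, was at 11.74 with LOXL2 WT and 11.68 with LOXL2 delta72, against 11.86. ENAH, an Ena/VASP family member that speeds elongation, was higher, at 10.58 and 10.57, against 10.39, with differences of 0.19 and 0.18 (SD 0.08 and 0.02 over 3 probe sets). Its relative VASP was at 8.95 and 9.12, against 8.96, on a single probe set. The formin gene DIAPH1 differed by -0.11 and -0.06, with 5 of its 7 probe sets lower in each comparison.

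At the adhesion plaque, PXN was lower on every probe set above the filter. PXN encodes paxillin, a scaffold of focal adhesions. It was at 11.44 with LOXL2 WT and 11.54 with LOXL2 delta72, against 11.73 in the control, which is 1.22-fold and 1.14-fold lower (SD 0.06 and 0.04 over 7 probe sets). All 7 probe sets were lower than the control in both comparisons. TLN1, the gene of the integrin activator talin, was at 7.87 and 7.88, against 8.09, but its probe sets disagreed with LOXL2 delta72, with 1 lower and 1 higher. VCL, the vinculin gene, differed by -0.06 and -0.01 (-0.0139), and ZYX, the zyxin gene, by 0.01 (0.00687) and -0.09.

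Among the crosslinkers, FSCN1 was lower on all of its probe sets. FSCN1 encodes fascin, which bundles filaments in filopodia. It was at 10.33 with LOXL2 WT and 10.35 with LOXL2 delta72, against 10.65 in the control, or 1.25-fold and 1.23-fold lower (SD 0.09 and 0.05 over 3 probe sets). Both LOXL2 arrays read nearly the same value. ACTN1, an alpha-actinin gene, was at 11.32 and 11.26, against 11.43, with all 6 probe sets lower in both comparisons and a median over them of -0.32 with LOXL2 WT. ACTN4 was at 10.62 and 10.76, against 10.80, with all 5 probe sets lower in each comparison. LIMA1, which encodes the filament stabiliser EPLIN, differed by 0.06 and 0.10.

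**Figure D2:**
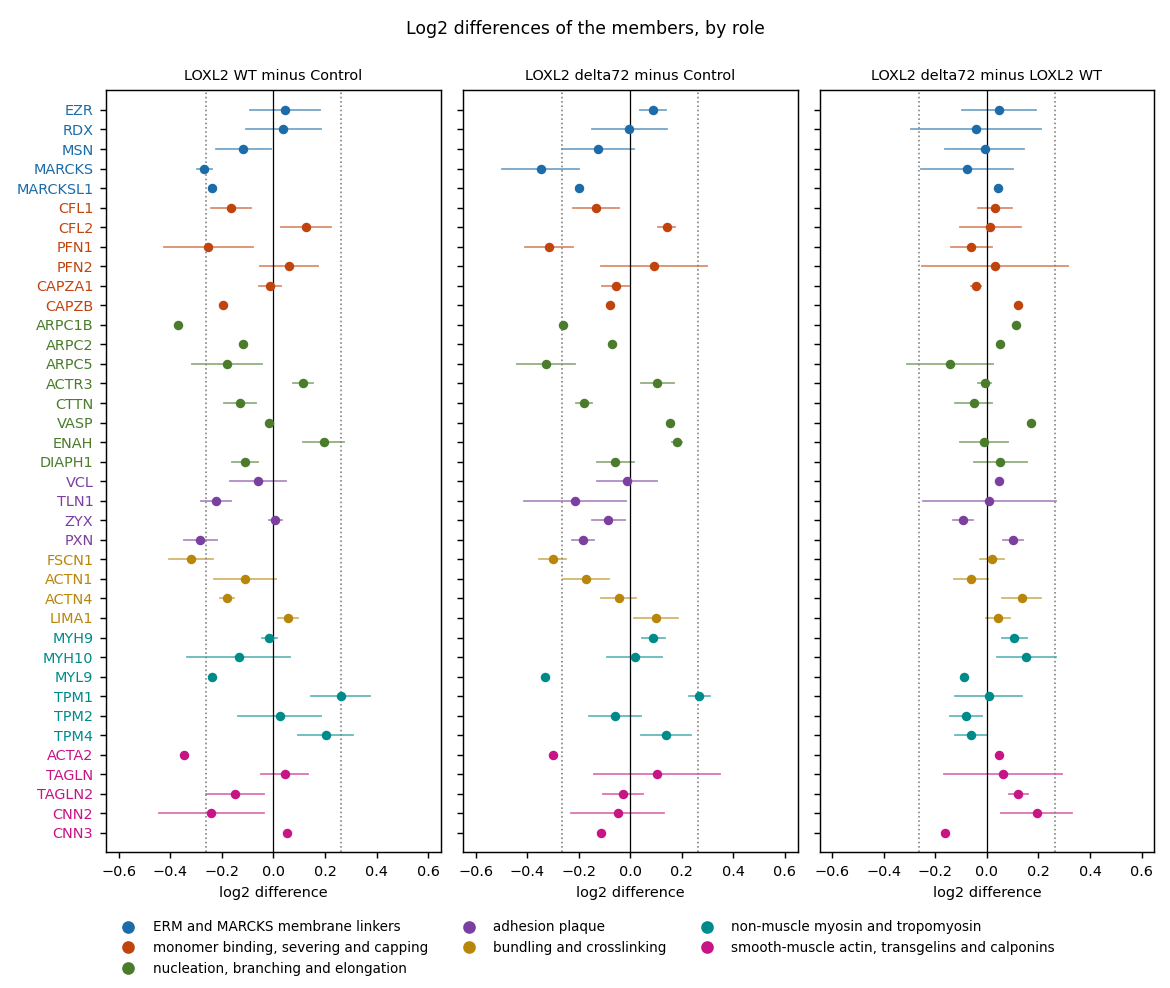
Log2 difference of each measured member (points, brightest probe set) in the 3 comparisons, in rows coloured by role. Bars are ± 1 SD between the gene's probe sets above the filter and describe probes of the same arrays, and dotted lines mark 1.2-fold. The 37 members above the filter (all but CNN3) spread from -0.37 to 0.26 with LOXL2 WT and from -0.35 to 0.27 with LOXL2 delta72 against the control, and from -0.14 to 0.19 between the forms.

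Of the contractile genes, the tropomyosin gene TPM1 was the highest member in both comparisons with the control, and the myosin light chain gene MYL9 was among those 1.2-fold lower with LOXL2 delta72. TPM1 was at 9.45 with LOXL2 WT and 9.46 with LOXL2 delta72, against 9.19 in the control. The differences were 0.26 and 0.27 (SD 0.11 and 0.04), and all 7 probe sets were higher in each comparison. The WT value lay just under the 1.2-fold line and the delta72 value just over it. TPM4 was at 10.44 and 10.38, against 10.24, although 2 of its 5 probe sets were lower in each comparison and the medians over them were 0.02 and 0.0036. TPM2 differed by 0.02 and -0.06.

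MYL9, a regulatory light chain of smooth and non-muscle myosin, was at 6.998 with LOXL2 WT and 6.91 with LOXL2 delta72, against 7.24 in the control. Its 2 probe sets gave nearly the same differences (SD 0.0020 and 0.01). The heavy chain genes did not follow it. MYH9 was at 12.07 and 12.18, against 12.09, with all 4 probe sets slightly lower with LOXL2 WT (-0.00163 to -0.07) and all 4 higher with LOXL2 delta72 (0.02 to 0.10). MYH10 differed by -0.14 and 0.02, and the median over its 3 probe sets with LOXL2 WT had the opposite sign, 0.18.

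The smooth muscle actin gene and the transgelin and calponin genes differed among themselves. ACTA2, the smooth muscle alpha-actin gene, was at 6.50 with LOXL2 WT and 6.54 with LOXL2 delta72, against 6.84 in the control, or 1.27-fold and 1.23-fold lower on the single probe set above the filter. TAGLN, the transgelin gene, was at 6.70 and 6.76, against 6.65, and its 6 probe sets pointed either way. TAGLN2 differed by -0.15 and -0.03, and CNN2, a calponin gene, by -0.24 and -0.05, with 8 of its 9 probe sets lower in each comparison. The lowest CNN2 probe set differed by -0.67 with LOXL2 WT, past 1.5-fold, and by -0.57 with LOXL2 delta72. CNN3, below the filter, was at 3.31 and 3.15, against 3.26. Of other smooth muscle markers, the summed linear intensity of MYH11, DES, CNN1, ACTG2 and LMOD1 was 309 with LOXL2 WT and 318 with LOXL2 delta72, against 332 in the control. Of the 4 above the filter, 3 were below the control in each comparison. ACTG2 was below the filter, at 3.67 and 3.72, against 3.80, and the part of these markers in the ACTA2 result was not tested.

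Genes with several probe sets offered a check of direction within the arrays. Of the 22 members with at least 3 probe sets above the filter, 10 (45.5%) had all of them lower with LOXL2 WT, against 25.2% of 3890 such genes. With LOXL2 delta72 the count was 9 (40.9%), against 24.4%. All probe sets were higher for 4 members (18.2%) with LOXL2 WT, against 26.3%, and for 6 (27.3%) with LOXL2 delta72, against 25.0%. CFL2, ENAH, PFN2 and TPM1 were those 4. Over single probe sets, 86 of 128 (67.2%) were below the control with LOXL2 WT, against 51.1% of all such probe sets, and 84 (65.6%) with LOXL2 delta72, against 50.1%. Probe sets of a gene can share probes and always share an array, so they are not replicates.

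**Figure D3:**
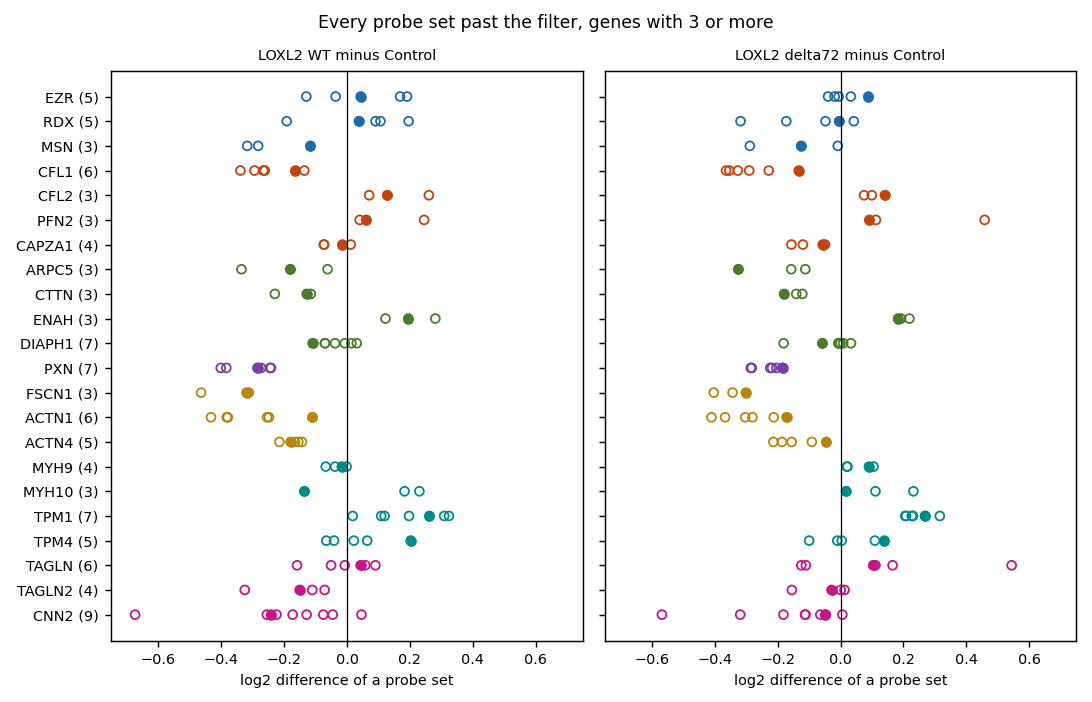
Log2 difference from the control of every probe set above the filter (open circles; the brightest is filled) for the 22 members with 3 or more, whose number follows the gene name. With LOXL2 WT and with LOXL2 delta72, all 7 probe sets of PXN lie below 0 and all 7 of TPM1 above it.

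Control probe sets on the same arrays also differed between them, by amounts that depended on their class. The 9 background probe sets with 17 or more G and C bases, which match no transcript, were all lower than the control array, with a median of -0.23 for LOXL2 WT and -0.12 for LOXL2 delta72. The 4 with between 12 and 17 such bases had medians of -0.11 and -0.04, and the 10 with up to 12 had medians of 0.02 and 0.03. Background probe sets with 19 to 22 such bases read 5.75 to 7.44, above the filter at 5.27. The brightest probe sets of ACTA2, TAGLN, TPM2 and MYL9 read within that range, as did those of the smooth muscle markers MYH11, DES and CNN1. The bacterial hybridisation spikes, which are added to the labelled RNA, had medians of -0.09 and -0.23 over 18 probe sets, and the poly-A spikes, added before labelling, had -0.11 and -0.06 over 24. The members' own medians were -0.12 and -0.06. The part of these shifts in the members' values was not tested.

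RNA integrity was read from the actin gene itself. The control probe sets of ACTB, beta-actin, differed between the 3' and 5' ends of the transcript by 1.46 with LOXL2 WT and 1.32 with LOXL2 delta72, against 1.26 in the control. Those of GAPDH differed by 0.0029, 0.0020 and -0.0058. On its brightest gene probe set ACTB was at 13.34 with LOXL2 WT and 13.25 with LOXL2 delta72, against 13.28, and ACTG1, gamma-actin, at 13.52 and 13.45, against 13.45. The 3 ACTB control probe sets were all below the control array, with medians of -0.09 in each comparison, and so differed in sign from the gene probe set with LOXL2 WT. These cytoplasmic actins are not members of the list and were named after their values were seen.

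**Figure D4:**
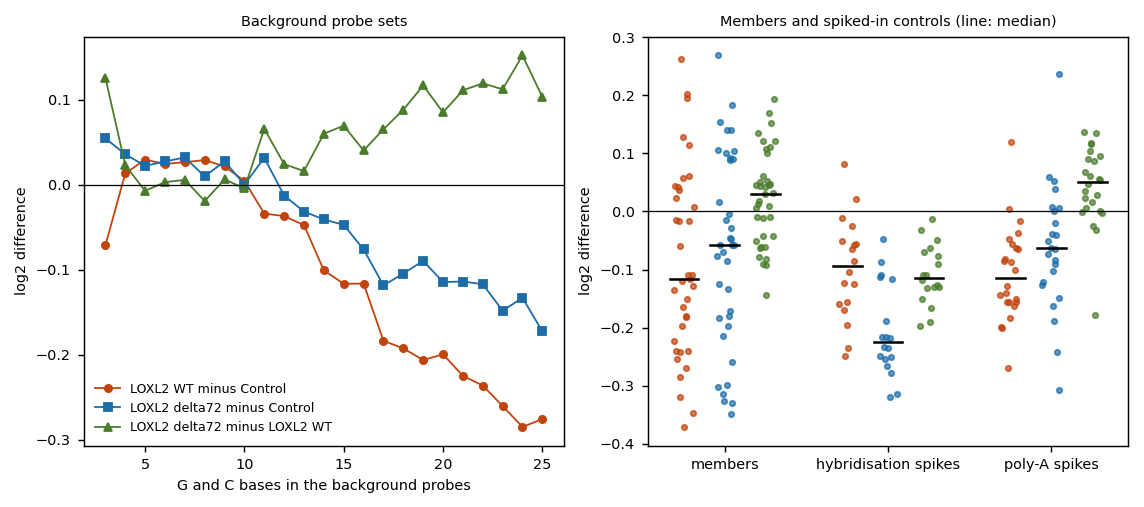
Left, log2 difference of the background probe sets (vertical axis) by the number of G and C bases in their probes (horizontal axis) in the 3 comparisons. Right, log2 differences of the 37 members above the filter, the 18 hybridisation spikes and the 24 poly-A spikes in the same colours, with a line at each median. Background probes rich in G and C lie below the control array, down to -0.29 with LOXL2 WT and -0.17 with LOXL2 delta72.

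The comparison of LOXL2 delta72 with LOXL2 WT does not use the control array. It left every member within 1.2-fold, 0 of 37 against 5.13% of all genes, and 0.221% of all genes differed by 1.5-fold. The members ranged from -0.14 (ARPC5) to 0.19 (CNN2), with a median of 0.03, against 0.0013 for all genes. Members above LOXL2 WT numbered 23 of 37, and 50.4% of all genes were above it. All probe sets of PXN (7), MYH9 (4) and TAGLN2 (4) were higher with LOXL2 delta72 than with LOXL2 WT, by 0.10, 0.11 and 0.12 on the brightest, and all 4 of CAPZA1 were lower, by -0.04. These 3 and 1 of 22 members (13.6% and 4.55%) stand against 16.0% and 20.6% of all such genes. Over single probe sets, 54 of 128 (42.2%) were lower with LOXL2 delta72, against 50.5%. VASP was 0.17 higher and MYH10 0.15 higher on their brightest probe sets. The background probe sets with 17 or more G and C bases had a median of 0.11 in the same comparison, and their part in these differences was not tested.

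Outside the list, 88 other genes of the actin system in 5 lists were read the same way, and 73 of them were above the filter. With LOXL2 WT 34 were above the control and 39 below, with a median of -0.03, where 51.7% of all genes were below. With LOXL2 delta72 36 were above and 37 below, with a median of -0.0026, where 49.8% of all genes were below. At 1.2-fold, 3 of the 73 were higher and 5 lower with LOXL2 WT, against 13.7% and 11.4% of all genes. With LOXL2 delta72, 2 were higher and 2 lower, against 11.0% and 7.75% of all genes. The nucleator list's median with LOXL2 delta72 was -0.06, as was the members', and the difference between these genes and the members was not tested.

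FERMT1, the gene of kindlin-1, an integrin activator of epithelial cells, was the lowest of them with LOXL2 delta72. It was at 9.59 with LOXL2 WT and 9.40 with LOXL2 delta72, against 10.08, or 1.41-fold and 1.60-fold lower (SD 0.13 and 0.23 over 3 probe sets). FERMT2, which encodes kindlin-2, was higher, at 8.33 and 8.35, against 8.07, and the motor gene MYO10 differed by 0.24 and 0.14.

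Among the ERM partners, ICAM1, an adhesion receptor that binds ERM proteins, was at 8.28 with LOXL2 WT and 8.58 with LOXL2 delta72, against 8.77. It was 0.30 higher with LOXL2 delta72 than with LOXL2 WT. PODXL, podocalyxin, was 0.27 higher in that comparison, on 1 probe set close to the filter. It read 5.54 with LOXL2 WT and 5.80 with LOXL2 delta72, against 5.71 in the control. SLK, a kinase that phosphorylates ERM proteins, differed from the control by 0.29 and 0.26.

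In the nucleator list the formin gene DIAPH3 was higher, by 0.36 with LOXL2 WT and 0.28 with LOXL2 delta72. EVL differed by -0.30 with each form, the formin gene INF2 by -0.30 and -0.18, and WASF2, named after its values were seen, by -0.28 and -0.13. In the monomer list CAP2, TWF2 and CAPG differed by 0.26, -0.26 and -0.26 with LOXL2 WT, all just under 1.2-fold, and by 0.03, -0.10 and -0.13 with LOXL2 delta72. SRF, the transcription factor that drives many actin genes, differed by 0.15 and 0.15 with a larger SD between its 2 probe sets (0.27 and 0.32), and its actin-sensing cofactor genes MRTFA and MRTFB by 0.10 and 0.18 with LOXL2 WT and by 0.25 and 0.0039 with LOXL2 delta72.

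**Figure D5:**
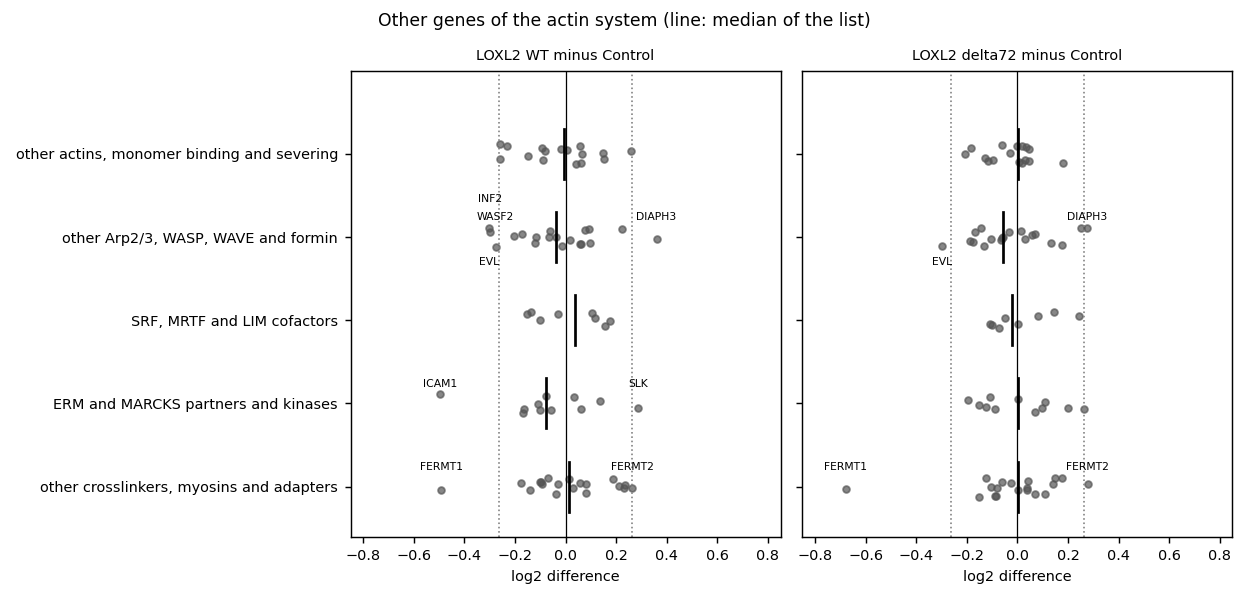
Log2 difference from the control of the 73 other actin system genes above the filter (points), in 5 lists, with a line at each list's median and dotted lines at 1.2-fold. Genes past 1.2-fold are labelled. The lowest list median is -0.08 with LOXL2 WT (ERM and MARCKS partners) and -0.06 with LOXL2 delta72 (nucleators), and FERMT1 is the lowest with LOXL2 delta72, at -0.68.

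SRF binds the CArG box, a run of A and T bases between C bases on one side and G bases on the other. The RefSeq promoters of the members were searched for it over the 250 bases before each start (GRCh38.p14; the pattern reads the same on both strands). Promoters were listed for 35 of the 41 genes. The box was found in at least 1 promoter of ACTN1, CNN2, TPM4 and FLNA, 4 of 35 genes (11.4%), against 1.44% of 27305 genes in the table. A box with 1 G or C in its core was found for 6 of 35 (17.1%), ACTA2, ACTN4, CAPZB, CFL2, VASP and ZYX, against 7.30% of all genes. Counted by promoter, the shares were 7.41% of 54 against 1.16% of 35116 for the box. With 1 G or C in the core they were 13% against 5.96%. The list was made of actin genes, many of which SRF is known to drive, so these shares are not a test. The windows below hold the box, in capitals, for CNN2, ACTN1 and TPM4. FLNA, without an expression value, is not shown. Of the 6 genes with 1 G or C in the core, only ACTA2 was picked to be shown.
CNN2, chr19:1026494-1026553, plus strand: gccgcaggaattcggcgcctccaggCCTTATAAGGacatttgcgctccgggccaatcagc
ACTN1, chr14:68977703-68977762, minus strand: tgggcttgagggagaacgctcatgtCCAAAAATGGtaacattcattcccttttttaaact
TPM4, chr19:16067340-16067399, plus strand: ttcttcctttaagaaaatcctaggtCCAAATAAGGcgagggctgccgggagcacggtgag
ACTA2, chr10:88952860-88952919, minus strand: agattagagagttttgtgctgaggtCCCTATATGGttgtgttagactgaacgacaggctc
ACTA2, chr10:88952810-88952869, minus strand: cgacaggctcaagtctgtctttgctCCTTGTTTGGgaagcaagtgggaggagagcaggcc

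On their brightest probe sets, CNN2 differed from the control by -0.24 with LOXL2 WT and -0.05 with LOXL2 delta72, ACTN1 by -0.11 and -0.17, and ACTA2 by -0.35 and -0.30. TPM4 differed by 0.20 and 0.14, but by 0.02 and 0.0036 as the median over its 5 probe sets. The genes with 1 G or C in the core that are not shown lay on either side of 0. CFL2 differed by 0.13 and 0.14, VASP by -0.02 and 0.15, and ZYX by 0.01 and -0.09. ACTN4 differed by -0.18 and -0.05, and CAPZB by -0.20 and -0.08. The box lies in 1 of 4 listed promoters of ACTN1 and 1 of 3 of TPM4. ACTA2 has 2 listed promoters, and both of its windows lie before the same start. Which start KYSE150 cells use is not known from these arrays. A match to the pattern describes the sequence and does not show binding.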

How the data were processed

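RNA of KYSE150 cells was measured on 3 Affymetrix 3' arrays, 1 per condition, from 100 ng of total RNA per the labels' protocols. The authors deposited log2 intensities for 49395 probe sets. The log2 scale was taken from the values, which lie between 2.07 and 14.56. Expression Console from Affymetrix and Partek were used, per the submitters' processing notes, which give no versions. How background was corrected and arrays were normalized is not stated there. An unknown background correction may compress the differences of dim probe sets. Probe sets were named from the platform annotation, in which 44988 had 1 symbol, 1832 had several and 2473 were not listed.

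Differences were taken between arrays for the brightest probe set of each gene, and counted by size (1.2-fold and 1.5-fold) with Python 3.11.15, pandas 2.3.3 and numpy 2.4.6. The SD between a gene's probe sets is given as probe error and holds no biological error. The number of arrays limits the precision, and no test was made. The counting was tested on simulated data. Named genes were all members, LOXL2, the cell type markers and, per wider list, up to 3 genes above the filter with the largest difference. Members and lists were chosen with earlier results of these data known. Alternatives were 2 other scalings, the median over probe sets and 2 other filters. 1 further gene list is not reported here.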

Additional observations from a re-analysis of the deposited data

How the results depend on the processing

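Of 75 medians and counts of members recomputed under the 5 alternatives, 68 stayed within the probe error or within 1.5-fold of the reported count. For a median, the probe error was the SD pooled over all genes, divided by the square root of the number of genes. The medians kept their sign, and a count has none to change. Most of the counts were 0 as deposited, and the 2 filters leave each member's value unchanged, so the 68 is a weak check. The shift to a common median used the brightest probe sets of genes above the filter (7.99 with LOXL2 WT and 7.98 with LOXL2 delta72, against 7.95 in the control), whose order is opposite to that of all non-control probe sets. After it, the median of all genes was -0.0507 with LOXL2 WT and -0.0327 with LOXL2 delta72, and the members' median was -0.16 with LOXL2 WT and -0.0905 with LOXL2 delta72, and 10 members in place of 5 were at least 1.2-fold lower with LOXL2 WT, as were 15.2% in place of 11.4% of all genes. With the median over probe sets that count was 8, against 10% of all genes. The count of members at least 1.2-fold higher with LOXL2 delta72, which was 1 (TPM1), was 0 under the common median, under quantile normalization and with the median over probe sets. TPM1 lay next to the limit. The shift to a common median moved every LOXL2 WT difference by the same amount. It took TLN1, MARCKSL1, MYL9, CNN2 and PFN1 past the limit of 0.263 (TLN1 from -0.223 to -0.264, PFN1 from -0.254 to -0.295). The cause of the other changes was not tested. Of 423 values of single members and wider lists, 18 moved by more than the probe error, 14 of them with the median over probe sets, which turned the ERM partners' median with LOXL2 delta72 to -0.16, from 0.0014. The count at 1.5-fold was 0 under each alternative, in each direction and comparison. No paired analysis was possible because each group had 1 array. Background probe sets rich in G and C read above the filter. How far signal over background limits the dim genes is not known, since no detection calls were used here.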
